A study of Mus musculus with 27 samples.

Results

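The 10 genes described here carry calcium in and out of the heart muscle cell at each beat: Atp2a2, Pln, Sln, Ryr2, Casq2, Slc8a1, Cacna1c, Jph2, Trdn and Asph. They were matched by symbol in the probe annotation, each by its probe set with the highest mean, and all 10 were found among the 19937 genes measured. RNA from mouse heart tissue was measured on 27 Affymetrix arrays in 9 groups of 3. Within each of days 3, 11 and 28 after surgery the groups were transverse aortic constriction with JQ1 (TAC JQ1), transverse aortic constriction with vehicle (TAC vehicle) and sham surgery with vehicle (sham vehicle). All mice were C57Bl/6J male littermates aged 10 to 12 weeks, and JQ1 or its vehicle, DMSO, was injected from 1.5 days after the operation. Transverse aortic constriction narrows the aortic arch so that the heart pumps against a raised pressure, here with a gradient of about 50 mmHg per the labels. JQ1 is a small molecule that displaces BET bromodomain proteins from acetylated chromatin. No group had sham surgery with JQ1, so a JQ1 difference is always one within constricted hearts, and the model holds the changes of all cells in a 10 to 20 mg piece of tissue. Nothing in the labels says that the arrays came from separate animals, so the p-values below describe the spread among these arrays, which may be technical.

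In a heart muscle cell each beat starts with calcium entering through the L-type channel, whose pore is Cacna1c. This calcium opens the ryanodine receptor Ryr2 on the sarcoplasmic reticulum, the internal calcium store, and the much larger release drives contraction. The pump SERCA2, made by Atp2a2, then returns calcium to the store, held in check by phospholamban (Pln) and sarcolipin (Sln), while the sodium-calcium exchanger (Slc8a1) expels what entered. Inside the store calsequestrin (Casq2) binds calcium and is tied to Ryr2 by triadin (Trdn) and junctin (a product of Asph), and junctophilin-2 (Jph2) holds the store membrane against the cell surface membrane. A fall of SERCA2 relative to phospholamban is a well known feature of failing hearts.

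The start regions of the members that could be shown are printed because these were called in TAC vehicle against sham hearts. Over the mean of the 3 days, Pln and Ryr2 were lower and Casq2 and Slc8a1 higher. For Slc8a1 that mean joined 0.57 at day 3, 0.24 at day 11 and −0.16 at day 28. The genes shown are the members with exactly 1 start site in the RefSeq table (GRCm38.p6) among those called over that mean. Each run covers 250 bases before to 50 after the start, 5′ to 3′ on the strand of the gene, and capitals mark matches on either strand to the GATA-factor motif AGATAA, to the sequence TATAAA of the TATA box, or to the MEF2 motif.
Ryr2, chr13:12106896-12107195, reverse strand: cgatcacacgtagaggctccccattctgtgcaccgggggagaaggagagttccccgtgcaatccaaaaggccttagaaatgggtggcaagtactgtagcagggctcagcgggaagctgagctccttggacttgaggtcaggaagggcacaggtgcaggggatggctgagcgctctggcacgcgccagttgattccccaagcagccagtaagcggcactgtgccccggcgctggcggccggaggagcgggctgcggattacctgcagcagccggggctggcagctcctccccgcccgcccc
Pln, chr10:53337436-53337735, forward strand: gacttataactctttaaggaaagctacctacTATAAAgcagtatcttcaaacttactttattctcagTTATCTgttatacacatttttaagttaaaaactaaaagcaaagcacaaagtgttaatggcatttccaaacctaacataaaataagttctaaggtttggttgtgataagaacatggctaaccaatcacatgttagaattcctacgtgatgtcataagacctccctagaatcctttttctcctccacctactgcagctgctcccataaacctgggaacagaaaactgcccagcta
Casq2, chr3:102086165-102086464, forward strand: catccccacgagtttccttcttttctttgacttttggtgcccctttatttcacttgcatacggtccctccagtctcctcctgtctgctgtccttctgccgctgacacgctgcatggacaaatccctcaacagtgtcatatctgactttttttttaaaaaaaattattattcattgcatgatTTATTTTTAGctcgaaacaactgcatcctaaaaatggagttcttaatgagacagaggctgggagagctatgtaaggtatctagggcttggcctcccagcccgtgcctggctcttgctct
Slc8a1, chr17:81738338-81738637, reverse strand: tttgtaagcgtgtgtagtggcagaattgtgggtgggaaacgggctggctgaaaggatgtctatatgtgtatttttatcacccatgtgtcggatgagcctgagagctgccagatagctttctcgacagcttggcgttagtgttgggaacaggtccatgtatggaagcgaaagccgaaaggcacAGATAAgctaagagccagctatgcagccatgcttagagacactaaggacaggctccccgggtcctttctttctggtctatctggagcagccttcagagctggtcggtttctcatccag
The motif AGATAA was found in Pln and Slc8a1, and in 11.2% of the 32851 promoters of this length. The sequence TATAAA was found in Pln, at positions −219 to −214 from the start, and in 13.6% of promoters. The MEF2 motif was found in Casq2, at positions −69 to −60 from the start, and in 3.19% of promoters. The E-box, CANNTG, was found in all 4 genes, and in 72.3% of promoters, and the CArG motif in none of the 4, with 1.63% of promoters holding it. Of the other members, Cacna1c and Jph2 have several start sites in the table and Atp2a2, Sln, Trdn and Asph are named only.

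Levels are log2 signal values, so 1 unit is a doubling, and a level of one probe set cannot be set against that of another. Atp2a2 and Pln lay at 13.42 to 13.75 and 13.56 to 13.76 on the 27 arrays, close to the highest value on any array (14.21), and how far differences are compressed there was not tested. Sln, which regulates SERCA chiefly in atria and skeletal muscle, lay at 5.23 to 5.88, and 15.2% of genes had a lower mean. Of 10 atrial markers measured, 3 were called higher and 2 lower at days 11 and 28 in TAC vehicle against sham (1 and 1 at day 3). Over all genes 7.55%, 15.5% and 15.1% were called at days 3, 11 and 28. In TAC JQ1 against TAC vehicle 0 were higher and 4 lower at both day 11 and day 28 (1 and 0 at day 3). There 11.9%, 16% and 19.6% of all genes were called at days 3, 11 and 28. The mean level of the list at day 28 lay at 8.20 to 8.38 in TAC JQ1, 8.46 to 8.62 in TAC vehicle and 8.37 to 8.41 in sham hearts. The median difference of its genes at day 28 was −0.004 for TAC vehicle against sham (−0.05 over all genes). For TAC JQ1 against TAC vehicle it was −0.27 (0.06 over all genes). The part of atrial cells in the levels of Sln was not tested. Across the 27 arrays Jph2 spanned 1.02 units, Asph 0.90 and Slc8a1 0.87, and Pln spanned 0.20.

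**Figure D1:**
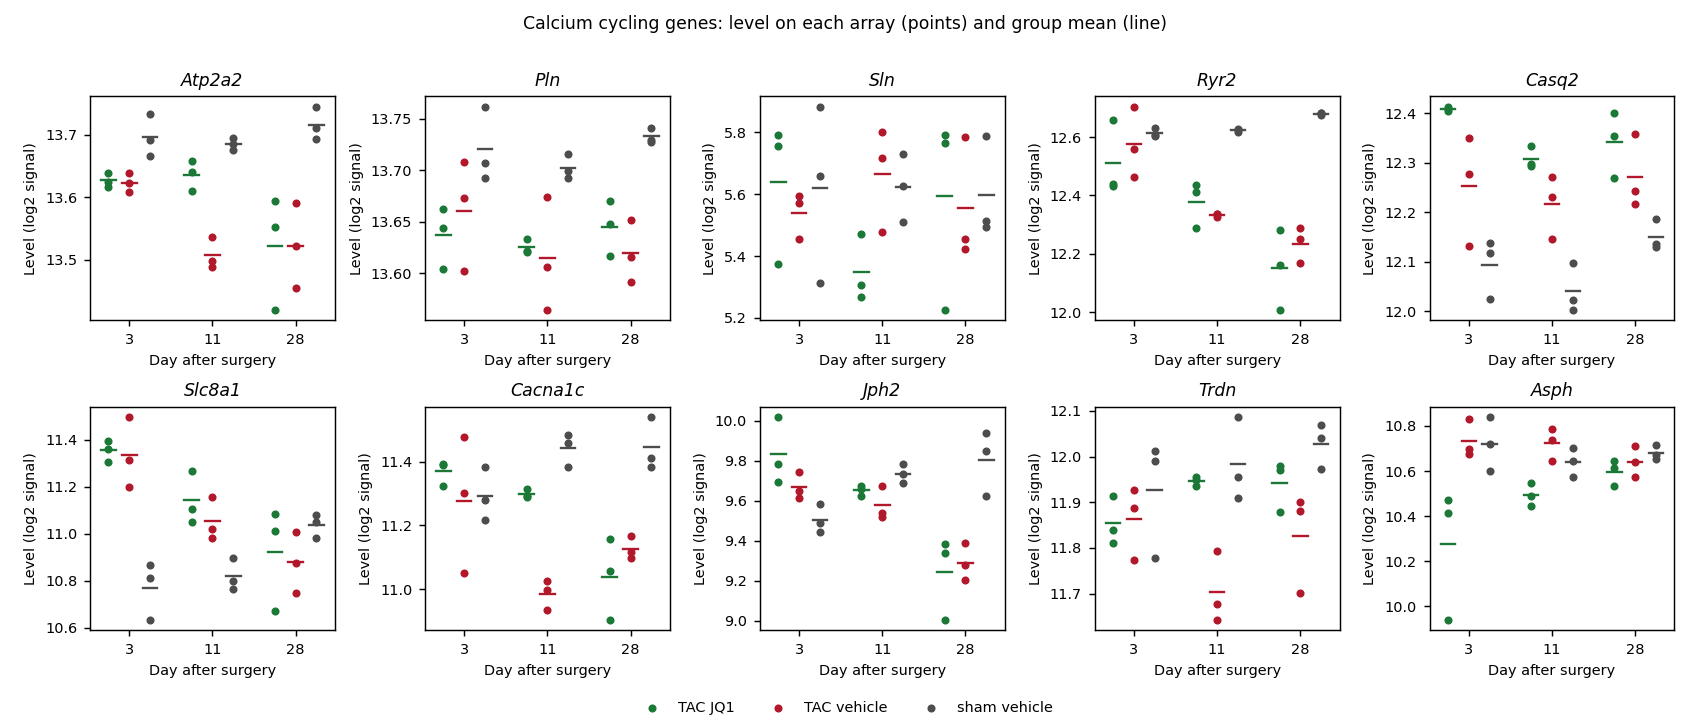
Level of each gene (log2 signal, vertical axis, scaled per panel) on every array against the day after surgery. Points are arrays, lines are group means, and groups run TAC JQ1, TAC vehicle, sham vehicle from left to right within a day. Jph2 lies at 9.003 to 9.39 in both constricted groups on day 28, against 9.63 to 9.94 in sham.

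With constriction the exchanger Slc8a1 was higher at day 3, and the genes of the pump, the release channel, the L-type channel and the junctions were lower at days 11 or 28. Called below means a Benjamini-Hochberg adjusted p under 0.05 over all 19937 genes in 1 limma fit, the main fit. Differences are given as log2 ± standard error. At day 3, 1 of the 10 genes was higher in TAC vehicle than in sham hearts and 0 were lower, where 7.55% of all genes were called (4.22% higher, 3.33% lower). At day 11, 4 were lower and 0 higher (15.5% of all genes, 7.8% higher and 7.73% lower), and at day 28 again 4 were lower and 0 higher (15.1%, 8.13% higher and 6.98% lower). The median difference of the 10 was −0.03 at day 3, −0.12 at day 11 and −0.18 at day 28, against −0.03, 0.01 and −0.05 over all genes. Over the mean of the 3 days 6 were lower and 2 higher, where 25.9% of all genes were called. Fits that left out 1 array called 6 to 8 members there. Jph2 kept its call in 13 of 18 such fits (adjusted p up to 0.0628). Trdn lost its call with the mean of its probe sets (adjusted p = 0.481).

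The TAC effect differed between days for Slc8a1 and Jph2 in a moderated F test, where 1.31% of genes were called. JQ1 effects differed between days for 0 of the 10 (1.07% of genes), as did the sham levels (0.0652%). In the limma fit the unadjusted p of the JQ1 effect by day was 0.00828 for Cacna1c and 0.0207 for Asph. That of the sham level by day was 0.0294 for Slc8a1 and 0.0123 for Jph2. With array weights the sham test passed for both (adjusted p = 0.0418 for Slc8a1 and 0.00188 for Jph2).

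With JQ1, Asph was lower at day 3 and Cacna1c and Trdn were higher at day 11. Compared with TAC vehicle, 1 gene was lower in TAC JQ1 hearts at day 3 (11.9% of all genes called, 4.28% higher and 7.61% lower), 2 were higher at day 11 (16%, 7.52% higher and 8.43% lower) and 0 were called at day 28 (19.6%, 7.16% higher and 12.4% lower). At day 28 the smallest adjusted p of the 10 was 0.258, and 36.5% of the genes called over all genes were higher, or 26.4% with each array centred on its median. Over the 3 days Casq2 (0.11 ± 0.04, adjusted p = 0.0283) and Trdn (0.12 ± 0.04, adjusted p = 0.039) were higher and Asph (−0.24 ± 0.06, adjusted p = 0.00152) lower, where 29.1% of genes were called. Of these, Casq2 kept its call in 12 and Trdn in 8 of 18 fits that left out 1 array, and Asph in all 18. With quantile normalization again the calls of Casq2 (adjusted p = 0.076) and Trdn (0.0698) were lost, as with centred arrays (0.0707 and 0.0861). These comparisons share the TAC vehicle arrays with those above. Against sham, TAC JQ1 hearts had 4 genes called at day 3 (17.6% of all genes), 3 at day 11 (10.5%), 5 at day 28 (19.9%) and 7 over the mean of the days (29.9%).

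**Figure D2:**
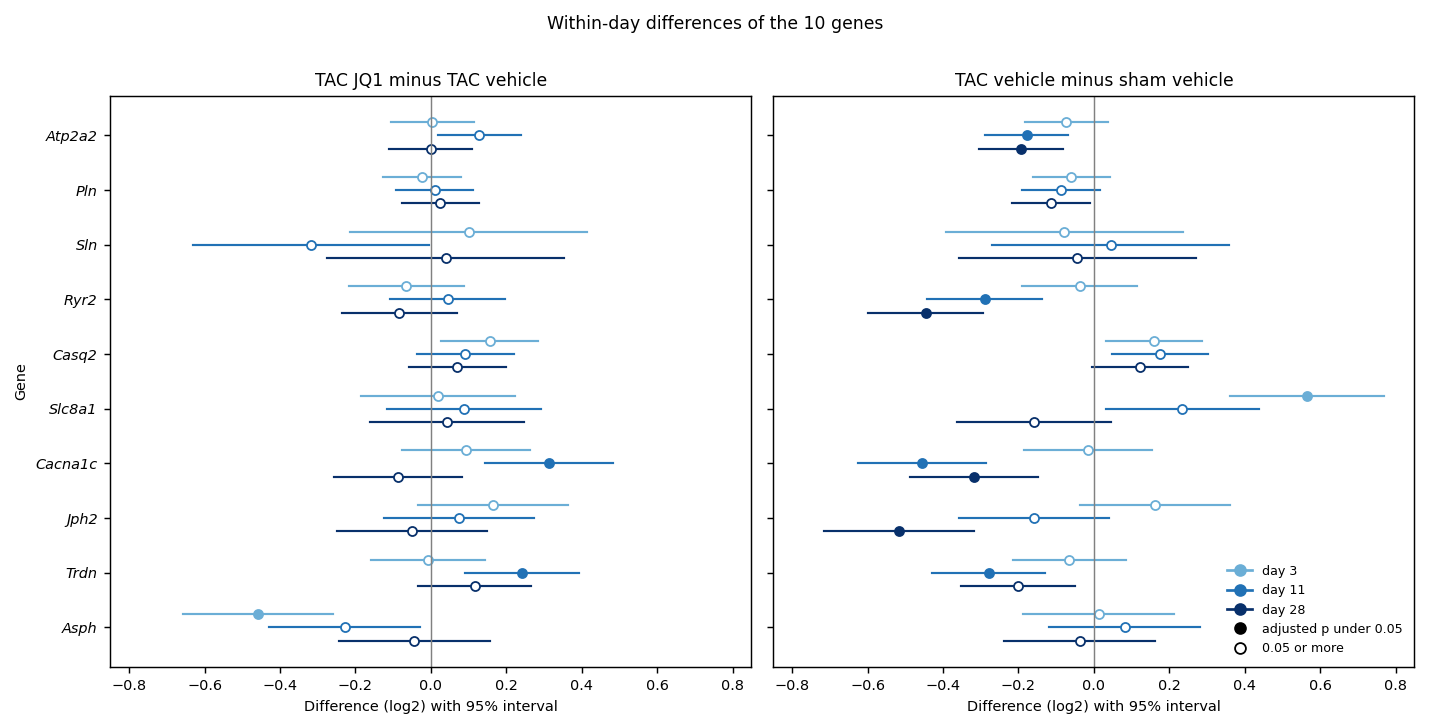
Difference of each gene (log2, horizontal axis) with its 95% interval at days 3, 11 and 28, for TAC JQ1 minus TAC vehicle (left) and TAC vehicle minus sham vehicle (right). Filled points have adjusted p under 0.05. Jph2 at day 28 lies farthest below 0 on the right, at −0.52, and Asph at day 3 lies farthest below 0 on the left, at −0.46.

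The pump gene Atp2a2 was lower after constriction from day 11. At day 11 it had levels of 13.54, 13.50 and 13.49 in TAC vehicle hearts, against 13.68, 13.68 and 13.70 in sham hearts. The groups did not overlap, and the difference was −0.18 ± 0.05 (adjusted p = 0.0238), so that the signal fell by 11.6%. At day 28 it had 13.52, 13.59 and 13.45 in TAC vehicle and 13.69, 13.71 and 13.75 in sham hearts (−0.19 ± 0.05, adjusted p = 0.0144). With the 2 groups fitted alone the adjusted p was 0.0821 at day 11 and 0.0845 at day 28, and at day 11 the call also ended in 5 of 6 fits that left out 1 array (adjusted p up to 0.0799). At day 28 it ended without sham replicate 3 (0.0601) or TAC vehicle replicate 3 (0.0999). That TAC vehicle array also stood apart in the mean level of 10 skeletal muscle markers, at 7.29 against 6.74 and 6.69 on the other TAC vehicle arrays of day 28, and the day 28 calls of Ryr2, Cacna1c and Jph2 held without it. The day 3 difference was −0.07 ± 0.05 (adjusted p = 0.54).

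The JQ1 differences of Atp2a2 were not called. TAC JQ1 hearts had 13.61, 13.66 and 13.64 at day 11, all above the TAC vehicle arrays, but the difference of 0.13 did not pass (adjusted p = 0.109). It did pass with trended and robust eBayes (adjusted p = 0.0251) and with array weights (0.0339). At day 28 TAC JQ1 hearts had 13.42, 13.55 and 13.59, spread over the TAC vehicle range, with a 95% interval of the difference of −0.11 to 0.11. The probe set reads SERCA2a and SERCA2b transcripts together, which these data do not separate.

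Phospholamban spanned the narrowest range of the 10 genes. The size of its ratio to the pump cannot be read from separate probe sets, and a change of that ratio between groups was not tested. At days 11 and 28 TAC vehicle minus sham was −0.18 and −0.19 for Atp2a2, and −0.09 and −0.11 for Pln. Pln was lower over the 3 days in TAC vehicle than in sham hearts by a small amount (−0.09 ± 0.03, adjusted p = 0.0269), where the signal fell by 5.84%, a call lost in 4 of 18 fits that left out 1 array (adjusted p up to 0.0628), and no single day passed (adjusted p = 0.611, 0.294 and 0.139 at days 3, 11 and 28). At day 28 the TAC vehicle arrays had 13.59, 13.62 and 13.65, against 13.73, 13.74 and 13.73 in sham hearts, with no overlap. That difference passed with trended and robust eBayes (adjusted p = 0.0252) and with array weights (0.0444). JQ1 differences of Pln were −0.02, 0.01 and 0.03 at the 3 days, with 95% intervals inside −0.13 and 0.13. Sarcolipin was not called in any comparison of the main fit. Its TAC JQ1 arrays at day 11 lay at 5.27, 5.47 and 5.31, against 5.72, 5.80 and 5.48 in TAC vehicle (−0.32 ± 0.15, adjusted p = 0.17), at a signal near the low end of the scale. With array weights this day 11 difference passed (adjusted p = 0.0262).

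The release channel gene Ryr2 was lower at days 11 and 28. At day 11 it had 12.34, 12.33 and 12.34 in TAC vehicle, against 12.63, 12.62 and 12.62 in sham hearts, with a difference of −0.29 ± 0.07 (adjusted p = 0.00766). At day 28 it had 12.25, 12.29 and 12.17, against 12.68, 12.68 and 12.68 (−0.45 ± 0.07, adjusted p = 0.000173), so that the signal fell by 26.6%. The gap of the groups was far wider than the spread within either, and the calls held in every fit that left out 1 array. The JQ1 differences were not called (adjusted p = 0.702, 0.726 and 0.421 at days 3, 11 and 28). At day 28 TAC JQ1 hearts had 12.01, 12.28 and 12.16, and their difference from sham was −0.53 ± 0.07.

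Its partners in the store moved differently. Casq2 was higher in TAC vehicle than in sham hearts over the 3 days (0.15 ± 0.04, adjusted p = 0.00219). Per day it was 0.16, 0.18 and 0.12 higher, and no day passed in the main fit (adjusted p = 0.139, 0.0589 and 0.21). At day 11 it passed with quantile normalization again (adjusted p = 0.0282), without the dimmest genes (0.0306) and with array weights (0.0165). With trended and robust eBayes it also passed there (0.021). In TAC JQ1 hearts at day 3 Casq2 had 12.41, 12.40 and 12.41, against 12.35, 12.28 and 12.13 in TAC vehicle and 12.14, 12.02 and 12.12 in sham hearts. The day 3 JQ1 difference from TAC vehicle, 0.16, was not called, with adjusted p from 0.0514 to 0.446 over the main fit and the alternatives. Casq2 was above sham at each day with JQ1 (0.32, 0.27 and 0.19, adjusted p = 0.000855, 0.00604 and 0.0299), the day 28 call being lost in 4 of 6 fits that left out 1 array. That call was also lost with quantile normalization again (adjusted p = 0.0906) and with centred arrays (0.163).

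Triadin was lower with constriction and higher with JQ1 at day 11. It had 11.95, 11.95 and 11.93 in TAC JQ1 hearts and 11.68, 11.64 and 11.79 in TAC vehicle hearts, with 11.95, 11.91 and 12.09 in sham hearts. The TAC vehicle arrays were below both other groups without overlap, and the difference from sham was called (−0.28 ± 0.07 from sham, adjusted p = 0.00921). It was 0.24 ± 0.07 higher with JQ1 than with vehicle (adjusted p = 0.025), a call lost in 5 of 6 fits that left out 1 array (adjusted p up to 0.111). Without sham replicate 3 the TAC call at day 11 was lost too (0.0691). At day 28 the TAC difference was −0.20 ± 0.07 (adjusted p = 0.0651). It passed with quantile normalization again (adjusted p = 0.021), without the dimmest genes (0.0376), with trended and robust eBayes (0.0313) and with array weights (0.00897). The mean level of 16 cardiomyocyte markers at day 11 lay at 12.79 to 12.83 in TAC JQ1 and 12.70 to 12.73 in TAC vehicle hearts, with 12.76 to 12.77 in sham hearts, and its part in the day 11 results of Trdn and Cacna1c was not tested.

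All 19 probe sets of Trdn pointed the same way at day 11. They come from the same arrays and target 1 gene with several splice forms, so they are not independent, and the files do not place them on those forms. The JQ1 and TAC differences also share the TAC vehicle arrays, with opposite sign, so low values on those arrays alone would move both. JQ1 minus TAC vehicle ran from 0.12 to 1.78 with a median of 0.59, and 7 were called higher and 0 lower, where 15.4% of the 21640 probe sets were called. TAC vehicle minus sham ran from −0.998 to −0.05 with a median of −0.28, and 2 were called lower (15.1% of probe sets). Standard errors ran up to 0.56, at a probe set with a mean level of 5.83. At days 3 and 28 the counts were 0 and 1 called for JQ1 (11.4% and 19.1% of probe sets) and 0 and 2 for TAC (7.11% and 14.8%). With the mean of the 19 in place of the brightest, the day 11 differences were 0.66 for JQ1 and −0.38 for TAC and neither was called (adjusted p = 0.0632 and 0.361).

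**Figure D3:**
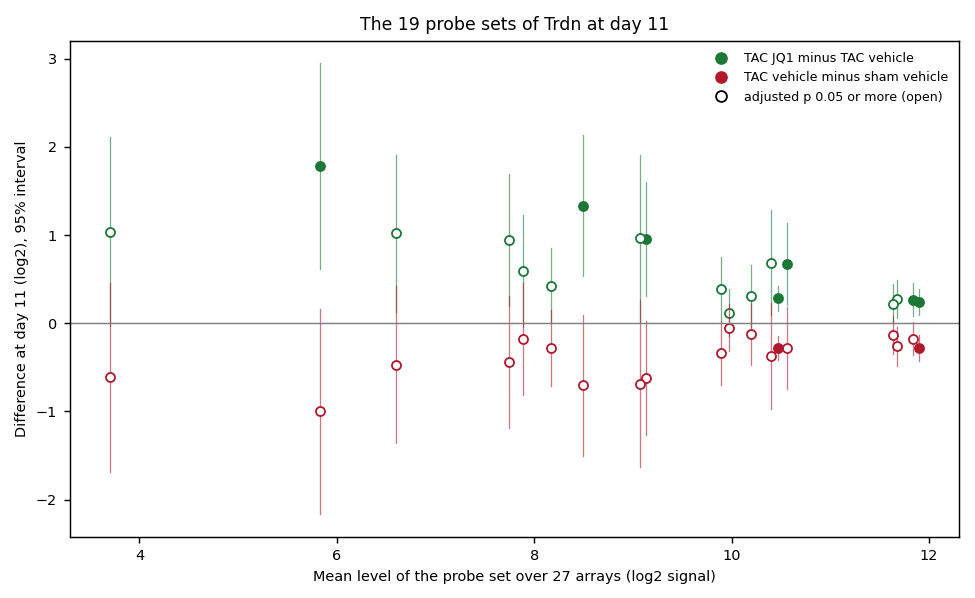
Difference of each of the 19 Trdn probe sets at day 11 (log2, vertical axis, bars show 95% intervals) against the mean level of that probe set. Green points are TAC JQ1 minus TAC vehicle and red points TAC vehicle minus sham vehicle, and filled points have adjusted p under 0.05. All green points lie above 0 and all red points below 0. Both differences use the same TAC vehicle arrays, with opposite sign, so they are not independent.

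Asph was the only member called lower with JQ1 at any day. At day 3 it had 9.94, 10.47 and 10.41 in TAC JQ1 hearts, against 10.83, 10.70 and 10.68 in TAC vehicle hearts, a difference of −0.46 ± 0.10 (adjusted p = 0.00262). The first of these arrays stood apart, and without it the difference was −0.29 (adjusted p = 0.0175). The 2 groups fitted alone gave adjusted p = 0.148. At day 11 the JQ1 difference was −0.23 ± 0.10 (adjusted p = 0.116) and at day 28 −0.04 ± 0.10. The day 11 difference passed with quantile normalization again (adjusted p = 0.0412) and with array weights (0.00581). The TAC differences were not called at any day (adjusted p = 0.972, 0.714 and 0.828). The Asph gene encodes junctin and also a hydroxylase among other products, which these data do not separate.

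Junctophilin-2 fell at day 28. At day 28 it had 9.28, 9.39 and 9.20 in TAC vehicle hearts, against 9.63, 9.94 and 9.85 in sham hearts, a difference of −0.52 ± 0.10 (adjusted p = 0.000613) and the signal fell by 30.1%. The day 3 difference was 0.16 ± 0.10 (adjusted p = 0.406) and that at day 11 −0.16 ± 0.10 (adjusted p = 0.336). The change of effect over the days passed (F = 12.4, adjusted p = 0.0288), and was lost in 8 of 18 fits that left out 1 array (adjusted p up to 0.0938). TAC JQ1 hearts had 9.003, 9.34 and 9.38 at day 28, a JQ1 difference of −0.05 with a 95% interval of −0.25 to 0.15. Over the main fit and the alternatives it ran from −0.12 to 0.07. The first of these arrays was also the lowest of its group for Atp2a2, Ryr2, Casq2, Slc8a1 and Cacna1c, and the highest for Sln, Trdn and Asph. Its mean level was 12.64 for cardiomyocyte markers, against 12.74 and 12.75, and 10.10 for fibroblast markers, against 9.78 and 9.90. The part of this in the day 28 results was not tested. The dimmer probe set of Jph2 was also called lower at day 28 (−0.56 ± 0.09, adjusted p = 0.000196).

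The exchanger Slc8a1 rose at day 3 and the L-type channel gene Cacna1c fell at days 11 and 28. Slc8a1 at day 3 had 11.31, 11.50 and 11.20 in TAC vehicle hearts, against 10.81, 10.63 and 10.87 in sham hearts. The difference was 0.57 ± 0.10 (adjusted p = 0.000894), or 48.0% more signal, and it held in all 6 fits that left out 1 array. At day 11 the difference was 0.24 ± 0.10 (adjusted p = 0.121) and at day 28 −0.16 ± 0.10 (adjusted p = 0.316). With array weights the day 11 difference passed (adjusted p = 0.0317). The effect differed between days (F = 13.5, adjusted p = 0.0236, lost in 3 of 18 fits that left out 1 array, with adjusted p up to 0.0673). Of 6 smooth muscle markers, cells that also use this exchanger, 3 were higher with TAC at day 3, and their part was not tested. TAC JQ1 hearts at day 3 had levels within the TAC vehicle range, with 11.36, 11.31 and 11.40 and a JQ1 difference of 0.02 (95% interval −0.19 to 0.22).

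The dimmer Slc8a1 probe set was higher at day 3 by 0.94 ± 0.19 (adjusted p = 0.00313), with 9.90, 10.14 and 9.53 in TAC vehicle and 9.27, 8.49 and 9.01 in sham hearts. At day 28 it was 0.22 ± 0.19 above sham (adjusted p = 0.47), with the sign opposite to the brighter one, and neither was called. With the mean of both probe sets the test between days gave adjusted p = 0.104.

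**Figure D4:**
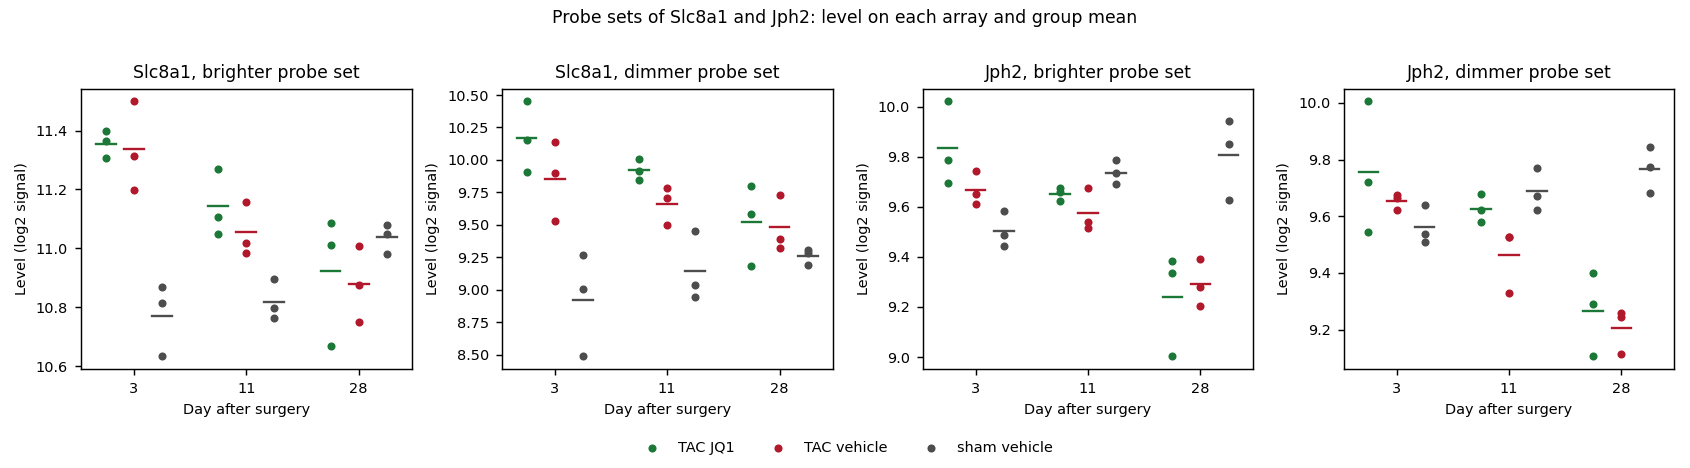
Level (log2 signal, vertical axis) of both probe sets of Slc8a1 and of Jph2 on every array against the day after surgery, in the order TAC JQ1, TAC vehicle, sham vehicle within a day. Points are arrays and lines group means. Both Slc8a1 probe sets are higher in the constricted hearts than in sham at day 3, and both Jph2 probe sets are lower at day 28.

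Cacna1c at day 11 had 11.29, 11.29 and 11.31 in TAC JQ1 hearts, against 11.03, 11.00 and 10.93 in TAC vehicle hearts, and 11.46, 11.38 and 11.48 in sham hearts. The TAC difference was −0.46 ± 0.08 (adjusted p = 0.000384) and the JQ1 difference 0.31 ± 0.08 (adjusted p = 0.0109), with no overlap of groups in either. Both calls held in all 6 fits that left out 1 array, and both differences share the TAC vehicle arrays. At day 28 TAC vehicle had 11.17, 11.12 and 11.10, against 11.41, 11.38 and 11.54 in sham hearts (−0.32 ± 0.08, adjusted p = 0.00931), a call lost without sham replicate 3 (0.0586). JQ1 then gave −0.09 ± 0.08 (adjusted p = 0.452), with arrays at 10.90, 11.16 and 11.06.

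Set against sham vehicle, the JQ1-treated constricted hearts had Slc8a1 and Casq2 higher at days 3 and 11, and Ryr2, Cacna1c and Jph2 lower at day 28. At day 3 Slc8a1 (0.58 ± 0.10), Jph2 (0.33 ± 0.10, adjusted p = 0.019) and Casq2 were higher and Asph lower (−0.45 ± 0.10, adjusted p = 0.00205), and the Jph2 call was lost in 3 of 6 fits that left out 1 array (adjusted p up to 0.139). With only the 2 groups compared the day 3 calls of Asph (adjusted p = 0.131), Jph2 (0.126) and Casq2 (0.0659) were lost. At day 11 Ryr2 was lower (−0.24 ± 0.07, adjusted p = 0.0337) and Slc8a1 higher (0.32 ± 0.10, adjusted p = 0.0361), beside Casq2. Of these the Ryr2 call was lost in all 6 and that of Slc8a1 in 5 of 6 such fits (adjusted p up to 0.179 and 0.145). At day 28 Jph2 (−0.56 ± 0.10, adjusted p = 0.00014), Ryr2, Cacna1c (−0.41 ± 0.08, adjusted p = 0.000825) and Atp2a2 (−0.19 ± 0.05, adjusted p = 0.0104) were lower. The Atp2a2 call ended with only the 2 groups compared (adjusted p = 0.14) and without TAC JQ1 replicate 1 (0.0884), and that of Casq2 at day 28 also with only the 2 groups compared (0.125).

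Ordered by group mean, Ryr2 ran from 12.68 in sham hearts at day 28, through 12.62 and 12.61 in the other sham groups and 12.58 in TAC vehicle at day 3, to 12.24 in TAC vehicle and 12.15 in TAC JQ1 at day 28. The 3 sham groups stood at the top, and neighbouring groups overlapped except sham at day 28 with sham at day 11, and TAC vehicle at day 11 with TAC vehicle at day 28. Casq2 ran the other way, with the 3 TAC JQ1 groups at the top (12.41, 12.31 and 12.34 at days 3, 11 and 28) and the 3 sham groups at the bottom (12.09, 12.04 and 12.15). For Jph2 the only neighbours that did not overlap were sham at day 3 (9.50) and TAC vehicle at day 28 (9.29), and for Slc8a1 all neighbours overlapped. Sham means of Slc8a1 were 10.77, 10.82 and 11.04 at days 3, 11 and 28, and those of Jph2 9.50, 9.74 and 9.81.

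Over the 27 arrays the levels of Atp2a2 went with those of Ryr2 (r = 0.86) and Cacna1c (r = 0.83), and those of Casq2 ran opposite to Pln (r = −0.57), as a description of arrays that share the 9 groups. The genes outside the list with the most similar pattern over the 27 arrays, among genes above the median level, were Psap for Atp2a2 (r = 0.93), Ccbe1 for Pln (0.86), Msi2 for Ryr2 (0.92), Furin for Jph2 (0.91), Lmo7 for Trdn (0.88) and Psmd14 for Slc8a1 (0.86). For Cacna1c it was Oplah (0.93), for Casq2 Tnfrsf23 (0.87), for Asph Asb5 (0.92) and for Sln Iqank1 (0.80).

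Other calcium genes, grouped by role in 10 lists, showed that the members stood among mixed changes. Of 121 listed, 102 were measured. In TAC JQ1 against TAC vehicle 4 were called higher and 6 lower at day 3, 13 and 13 at day 11 and 10 and 19 at day 28, where 11.9%, 16% and 19.6% of all genes were called. In TAC vehicle against sham the counts were 4 and 5, 10 and 16, and 7 and 21, where 7.55%, 15.5% and 15.1% of all genes were called. At day 28 the release channel partners had 3 of 11 higher and 0 lower with TAC and 0 higher and 3 lower with JQ1, and the voltage-gated channel list 1 of 14 higher and 2 lower with TAC and 0 higher and 5 lower with JQ1. The mitochondrial list had 3 of 10 lower and 0 higher with TAC at days 11 and 28, and with JQ1 4 higher and 0 lower at day 11 and 2 higher and 2 lower at day 28. The day 28 shares over all genes were 8.13% higher and 6.98% lower with TAC, and 7.16% higher and 12.4% lower with JQ1. Among the kinases, phosphatases and anchors, 7 of 17 were lower at day 28 and 0 higher, such as the kinase Camk2b (−0.50 ± 0.09) and the phosphodiesterase Pde3a (−0.46 ± 0.09). Hrc, a calcium-binding protein of the store, was lower with TAC at the 3 days (−0.37, −0.64 and −0.64), and higher with JQ1 at day 11 (0.30 ± 0.09, adjusted p = 0.0204). Mylk3, the cardiac myosin light chain kinase, was lower with TAC at all 3 days (−0.57, −0.91 and −0.56) and higher with JQ1 at day 11 (0.42 ± 0.09).

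With JQ1 the channel inhibitor Rrad was lower at all 3 days (−0.87, −1.20 and −1.10), and higher were the mitochondrial uniporter pore Mcu (0.48, 0.52 and 0.50) and the store-operated channel Orai1 (0.50, 0.59 and 0.41). Of the 10 dyad genes 1, 3 and 1 were higher and 0, 2 and 3 lower with TAC at days 3, 11 and 28, and 1, 2 and 2 were higher and 1, 4 and 4 lower with JQ1. Among them Tcap was lower with TAC at days 11 and 28 (−0.75 and −0.38) and higher with JQ1 at all 3 days (0.82, 1.298 and 0.50). Jph1, the skeletal muscle relative of Jph2, was lower with TAC at day 28 (−0.53 ± 0.12) and higher with JQ1 at days 11 and 28 (0.39 and 0.50). Speg, a kinase of the dyad, was lower with TAC at day 28 (−0.74 ± 0.09) and lower with JQ1 at all 3 days (−0.45, −0.26 and −0.59). Of the release channel's partners, the TAC vehicle arrays had more Sri (sorcin) at days 11 and 28 (0.32 and 0.37) and TAC JQ1 hearts had less of it at all 3 days (−0.42, −0.40 and −0.32).

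**Figure D5:**
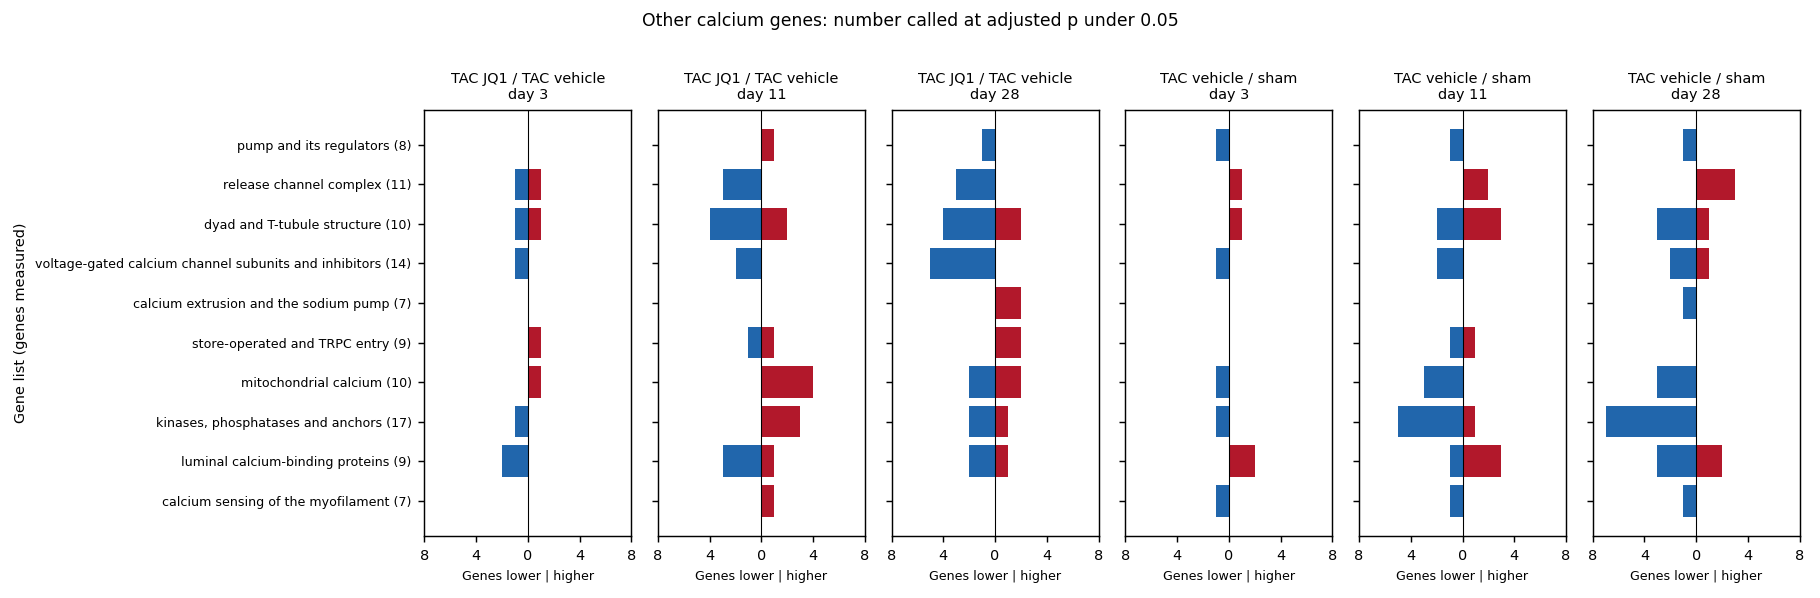
Number of genes of each list called higher (red, right) or lower (blue, left) at adjusted p under 0.05, for TAC JQ1 against TAC vehicle and TAC vehicle against sham at each day. The measured size of each list is in brackets. The kinase list has 7 genes lower and 0 higher in TAC vehicle at day 28.

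Markers of other cells moved in the same comparisons. Of 16 cardiomyocyte markers, 0 were called at day 3, 1 higher and 2 lower at day 11, and 2 lower at day 28 in TAC vehicle against sham, and with JQ1 1 was higher at day 3, 2 at day 11 and 0 at day 28, with 0 lower. At day 28, where Atp2a2, Ryr2, Cacna1c and Jph2 were lower with TAC, the mean level of these markers lay at 12.65 to 12.76 in TAC vehicle and 12.77 to 12.81 in sham hearts, with no overlap. At day 11 it lay at 12.70 to 12.73 in TAC vehicle and 12.76 to 12.77 in sham hearts, again with no overlap, and at day 3 the groups overlapped. The median TAC difference of the 16 was −0.05 at day 11 and −0.08 at day 28, against 0.01 and −0.05 over all genes. Fibroblast markers were higher with TAC in 4, 6 and 9 of 10 at days 3, 11 and 28 (4.22%, 7.8% and 8.13% of all genes were called higher), and lower in 1, 0 and 0, with a mean level of 10.16 to 10.62 in TAC vehicle against 9.40 to 9.51 in sham hearts at day 28. Macrophage markers were higher with TAC in 4, 9 and 9 of 10 and lower in 0. With JQ1 the fibroblast markers were lower in 4, 5 and 5 of 10 and higher in 1, 0 and 0, and the macrophage markers were lower in 6, 7 and 6 of 10 and higher in 0, where 7.61%, 8.43% and 12.4% of all genes were called lower. Endothelial markers were higher with TAC in 0, 3 and 1 of 9 and lower in 0, and with JQ1 lower in 2, 2 and 5 of 9 and higher in 0. Skeletal muscle markers were called in 0 of 10 with TAC at each day, and with JQ1 in 0 at days 3 and 11 and 2 higher at day 28. With JQ1 the 1 measured red cell marker was higher at days 11 and 28 (1.09 and 1.22). In a piece of tissue fewer heart muscle cells and less RNA per cell cannot be told apart, and the part of these shifts in the results above was not tested.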

How the data were processed

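The values are log2 signals of 34760 probe sets on 27 arrays, as deposited by the authors, with a range of 1.67 to 14.21 and array medians between 6.954 and 7.043. How they were normalized is not stated in the labels used here. Limma is named in the submitters' processing notes, with no version. No batch, slide or scan date was given in the sources used here, and no columns were left without a sample.

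Genes were named from GEO's platform annotation. Of the probe sets 21640 had 1 gene, 1321 several and 11799 none, and these last kinds were not used. The probe set of highest mean was taken for each of the 954 genes with several, leaving 19937 genes. A linear model with a mean per group was fitted with limma 3.58.1 in R 4.3.3, with 18 residual and 4.9 prior degrees of freedom. Adjustment over all genes followed Benjamini and Hochberg. The number of arrays, 3 per group, limits the precision. The test was checked on simulated data with known changes, and only recovery of the larger ones was required. It does not show how well changes as small as those of most members are found. The members and lists were chosen with earlier results of these data known. Every member is named. In each comparison up to 3 called genes per role list and direction with the smallest adjusted p were eligible, and the 3 most similar genes of a member by Pearson r. Alternatives were quantile normalization again, centring, a filter on dim genes, the mean of probe sets, trended and robust eBayes, array weights, fitting only the groups compared, a replicate block and leaving out each array, and every probe set of a member, which was chosen after seeing the data. Promoter sequences are RefSeq's, from GRCm38.p6.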

Additional observations from a re-analysis of the deposited data

Results flagged for a closer look

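The effect of constriction on Slc8a1 differed between the 3 days (moderated F test, adjusted p = 0.0236). TAC vehicle minus sham vehicle was 0.57 at day 3, 0.24 at day 11 and −0.16 at day 28. The effect on Jph2 also differed between days (adjusted p = 0.0288), at 0.16, −0.16 and −0.52. The test of the sham vehicle level between days did not pass for either gene (adjusted p = 0.649 for Slc8a1 and 0.514 for Jph2, unadjusted p = 0.0294 and 0.0123). With array weights it passed for both (adjusted p = 0.0418 for Slc8a1 and 0.00188 for Jph2).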

How the results depend on the processing

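Of 2715 values of members under the alternatives 2579 kept their side of the threshold, 102 lost a call, 34 gained one and 0 calls changed direction; the sign of an uncalled difference was not counted, and 70 of those had the other sign. The cause of the moves was not tested, except that fits of only the groups compared hold fewer arrays. For JQ1 over the mean of days, 1 member was called with quantile normalization again and 1 with centred arrays, where the main fit called 29.1% of all genes. Without the dimmest genes, which left out Sln, 580 genes were called for the TAC effect by day, 469 for the JQ1 effect by day and 21 for sham by day. With the mean of probe sets, 1 member was called for JQ1 at day 11 and 1 for the TAC effect by day. There the main fit called 16% and 1.31% of all genes. With trended and robust eBayes, 4 members and 498 genes were called for the TAC effect by day and 358 genes for the JQ1 effect by day. Array weights, by the gene-by-gene method since the default did not converge, gave 2904 genes for TAC at day 3, 5972 at day 11, 6 members and 6929 genes for JQ1 at day 11, 6313 and 5461 genes for TAC JQ1 against sham at days 3 and 11, 4 members and 2045 genes for the TAC effect by day, 1 and 2704 for the JQ1 effect by day and 2 and 2162 for sham by day. With only the groups compared, 250 genes were called for TAC at day 3, 0 members and 422 genes for JQ1 at day 3, and 2126 genes for JQ1 at day 28. For TAC JQ1 against sham such fits gave 1 member and 1178 genes at day 3. At day 28 they gave 3 members, where the main fit called 19.9% of all genes. The TAC, JQ1 and sham tests between days gave 626, 2 and 0 genes. With the replicate block 135 genes were called for the TAC effect by day and 44 for the JQ1 effect by day, and 4 member calls were lost: Atp2a2 for TAC at day 11 (adjusted p = 0.0529), Ryr2 for TAC JQ1 against sham at day 11 (0.0506) and Pln over the mean of days against sham (0.0556 for TAC vehicle, 0.0604 for TAC JQ1). The block ended no other member call. No general pairing by replicate number was seen. Of 27 same-numbered pairs 7 had a correlation of deviations over 0.1, the highest being 0.50, and 8 of 27 arrays correlated best with their own number. Whether some samples were paired is not settled by this, because the deviations of 3 arrays from their own mean depend on each other. Leaving out 1 array gave 1 to 2 members and 466 to 1812 genes for TAC at day 3, 2 to 4 members and 2176 to 2655 genes at day 11, and 2 to 4 members and 1794 to 2817 genes at day 28. For JQ1 it gave 1409 to 2740 genes at day 3, 1 to 2 members and 2039 to 2679 genes at day 11, and 1 to 3 members and 5364 to 5930 genes over the mean of days. It gave 1 to 2 members and 1180 to 1827 genes for TAC JQ1 against sham at day 11, 0 to 3 members and 96 to 405 genes for the TAC effect by day, 37 to 437 genes for the JQ1 effect by day and 0 to 15 genes for sham by day. The share of called genes that were higher in TAC JQ1 than in sham hearts at day 28 was 36.9%, or 26.5% with centred arrays. Atp2a2 and Pln lie near the top of the signal range and Sln near its low end, which limits what their differences show.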
